A study of Mus musculus with 9 samples.

Results

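The genes described here are 10 contractile genes of myoepithelial cells and smooth muscle: Acta2, Actg2, Myh11, Myl9, Mylk, Cnn1, Tagln, Lmod1, Des and Oxtr. They were taken by name from a table of 54532 mouse genes, and all 10 were found in it. The samples were submandibular salivary glands of wild-type (WT) mice that had all received 10 Gy of radiation. Glands were taken 30, 60 or 90 days later, with 3 libraries at each time, and RNA came from 4 sections of 50 µm for each library. Non-irradiated glands were not analysed here, so every comparison is between irradiated times, and longer time after irradiation cannot be told apart from older age of the animals. Nothing in the labels says that the 3 libraries of a time came from separate animals, so the p-values measure the spread between these libraries, which may in part be technical.

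Smooth muscle and myoepithelial cells contract when myosin filaments slide along actin filaments. Calcium bound to calmodulin activates myosin light chain kinase, which phosphorylates the regulatory light chain of myosin and so switches the motor on. In salivary glands, myoepithelial cells are contractile epithelial cells that wrap the acini and press saliva towards the ducts. Smooth muscle cells of the vessel walls use many of the same proteins, and pericytes share some of them. These are bulk samples, so a change in the number of cells of a type and a change in RNA per cell cannot be told apart.

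Among the 10 genes, Actg2, the gamma smooth muscle actin, was the only one whose level passed the test between time points. It was 2.20-fold higher at 90 than at 30 days. Acta2 and Mylk were each 1.39-fold higher over the same interval but missed the threshold. Every one of the 9 genes with enough reads to test had a higher estimate at 90 than at 30 days, with a median log2 fold change of 0.40, against 0.01 for all 15224 genes tested. Of all genes tested, 52.1% had a higher estimate. The median of the contractile genes was 0.255 without 30-day sample 1, 0.354 without 90-day sample 2 and 0.575 without 30-day sample 3, and all 9 estimates stayed above 0 in each of these fits. Oxtr, the oxytocin receptor gene, was almost unread, and Tagln was read far less per kilobase of exon than Acta2, Cnn1 and Myh11.

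Both smooth muscle actins encode nearly the same protein, so their transcripts were compared first. The coding sequences of Acta2 (1131 bases without the stop codon) and Actg2 (1128 bases), from GENCODE release M21, matched at 952 of 1128 aligned bases (84.4%). None of the 1592 windows of 50 bases in the Actg2 transcripts occurred in a transcript of another gene. For Acta2, 7 of 2146 windows did, in Actg1 and its copies.

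Many smooth muscle genes are regulated by serum response factor, which binds the CArG box. This box has CC, then 6 bases that are all A or T, then GG, and it reads as a CArG box on both strands. RefSeq promoters (GRCm38.p6, 300 bases each, from 250 before the start) were found for 7 of the 10 genes, and not for Myh11, Tagln and Actg2. An exact box was present in 1 of the 7 (Myl9), and in 535 of 32851 promoters of all genes (1.63%). With up to 1 C or G allowed among the 6 inner bases, 2 of the 7 (Myl9 and Acta2) and 9.98% of all promoters held a box. The 4 matches are printed as 30-base windows with the box in capitals, because they are the only matches among the 7 promoters of the contractile genes. In Myl9 (plus strand) they lie at chr2:156775293-156775322, an exact box 151 bases before the start, and at chr2:156775355-156775384, 89 bases before it. In Acta2 (minus strand) they lie at chr19:34255438-34255467, 74 bases before the start, and at chr19:34255388-34255417, 24 bases before it. All these distances are from the RefSeq start. Both Acta2 windows lie inside the GENCODE span of the gene (chr19:34241090-34255590), whose 5′ end is further upstream. The RefSeq promoter of Mylk likewise lies inside the GENCODE span of Mylk. A match is a description of the letters and not a measured binding site.
Myl9, exact box: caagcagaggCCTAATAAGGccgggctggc
Myl9, 1 inner C or G: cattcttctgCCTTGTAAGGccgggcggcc
Acta2, distal, 1 inner C or G: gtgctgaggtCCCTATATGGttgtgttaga
Acta2, proximal, 1 inner C or G: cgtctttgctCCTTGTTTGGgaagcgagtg

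The libraries held 16541396 to 26065856 counts. A single secretory gene, Mucl2, took 31.4% to 42.8% of them, and the 10 contractile genes together took 0.027% to 0.0736%. Levels are given as CPM, counts scaled to a common library total, after TMM scaling, which corrects for such dominant genes. A total of 3 counts, the limit that a count of 0 allows, corresponds to 0.101 to 0.212 CPM, and it covers counting error only. The library of 30-day sample 1 had the largest Mucl2 share and the lowest level of 7 of the 9 tested contractile genes. The library of 90-day sample 2 had the smallest Mucl2 share and the highest level of 7 of the 9. The part of Mucl2 abundance in the contractile gene levels was not tested, and the 90 against 30 day values of Acta2, Actg2, Myh11, Mylk and Cnn1 and the median of the list are given without each of them below.

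Levels of different genes were compared per kilobase of exon, as the mean of 9 libraries ± SD. Acta2 was the highest at 90.2 ± 17.4 CPM per kilobase and Myl9 followed at 29.0 ± 5.06. Cnn1 (16.9 ± 3.02) and Myh11 (15.9 ± 2.82) did not differ beyond their spread. Mylk was at 5.62 ± 1.07. Lmod1 (2.98 ± 0.609) and Actg2 (2.60 ± 0.864) overlapped, as did Tagln (0.544 ± 0.168) and Des (0.535 ± 0.225), and Oxtr came last at 0.0189. Exon length here joins all annotated exons of a gene, so a gene with long isoforms that are not used in the gland is understated by this scale.

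**Figure D1:**
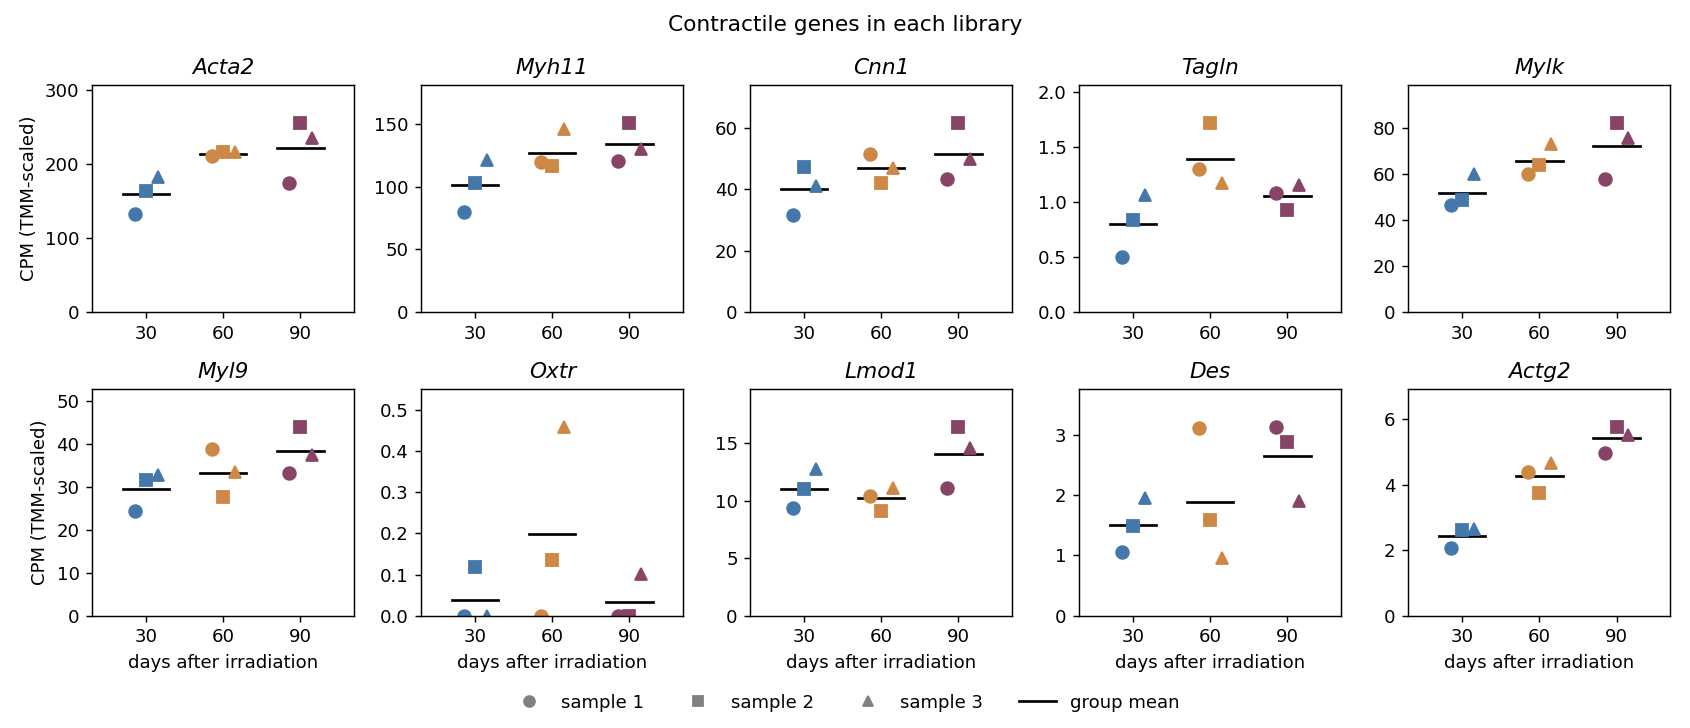
TMM-scaled CPM of the 10 contractile genes (vertical axes start at 0 and differ between panels) against days after irradiation, with 1 point per library, shaped by sample number, and a bar at each group mean. The 3 Actg2 groups do not overlap, whereas Myh11 and Cnn1 overlap at every step and Oxtr stays at or near 0.

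The actins came first among the contractile proteins. Acta2 encodes alpha smooth muscle actin, the thin filament protein that is the usual marker of myoepithelial cells and vascular smooth muscle (ENSMUSG00000035783, chr19:34241090-34255590, GRCm38). Its CPM was 132, 163 and 182 in the 30-day libraries, 210, 215 and 216 in the 60-day libraries, and 174, 255 and 234 in the 90-day libraries. All 60-day libraries lay above all 30-day libraries, while 90-day sample 1 fell inside the 30-day range. The means were 159 ± 25.3, 214 ± 3.18 and 221 ± 42.0 CPM (SD, n = 3 each). The log2 fold change was 0.42 ± 0.14 (SE) at 60 against 30 days, with an edgeR adjusted p of 0.172, and 0.47 ± 0.14 at 90 against 30 days, with an edgeR adjusted p of 0.0632. Between 60 and 90 days the estimate was 0.05 ± 0.14 (edgeR adjusted p = 0.934). The 90-day difference was 0.36 without 30-day sample 1 (edgeR adjusted p = 0.306) and 0.35 without 90-day sample 2 (edgeR adjusted p = 0.322).

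Actg2 encodes gamma smooth muscle actin, best known from the muscle of the gut and bladder wall (ENSMUSG00000059430, chr6:83512905-83536265). It had 29, 44 and 45 counts at 30 days, 102, 83 and 112 at 60 days, and 147, 168 and 110 at 90 days. As CPM these were 2.05, 2.61 and 2.66, then 4.40, 3.75 and 4.67, then 4.95, 5.77 and 5.52. Each later group lay wholly above the earlier one. The means were 2.44 ± 0.338, 4.27 ± 0.472 and 5.41 ± 0.419 CPM (SD, n = 3 each). At 90 against 30 days Actg2 rose by a log2 fold change of 1.14 ± 0.22 (SE), with an edgeR adjusted p of 0.00713. In the test of any difference among times its edgeR adjusted p was 0.0188, a call that was lost without 30-day sample 1 or 2 or 90-day sample 2 or 3. The steps from 30 to 60 days (0.80 ± 0.23, edgeR adjusted p = 0.103) and from 60 to 90 days (0.34 ± 0.21, edgeR adjusted p = 0.592) did not pass singly. The 90 against 30 day call held in all 18 alternatives run, with 1.03 without 30-day sample 1 (edgeR adjusted p = 0.0472) and 1.08 without 90-day sample 2 (edgeR adjusted p = 0.0415). Over the 18, the log2 fold change ran from 1.03 to 1.36 and the edgeR, DESeq2 or limma adjusted p from 0.000329 to 0.0472.

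The genes of the motor and its switch followed. Myh11 encodes the smooth muscle myosin heavy chain, the motor itself (ENSMUSG00000018830, chr16:14194535-14291372). Its CPM was 79.5, 103 and 121 at 30 days, 120, 116 and 146 at 60 days, and 121, 151 and 130 at 90 days. The groups overlapped at each step, although 30-day sample 1 lay well under all other libraries. The log2 fold change at 90 against 30 days was 0.40 ± 0.14 (edgeR adjusted p = 0.138). It was 0.26 without 30-day sample 1 (edgeR adjusted p = 0.507) and 0.30 without 90-day sample 2 (edgeR adjusted p = 0.469).

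Myl9 encodes the regulatory light chain that the kinase phosphorylates (ENSMUSG00000067818, chr2:156775420-156781658). Its CPM was 24.4, 31.7 and 32.7 at 30 days, 38.8, 27.7 and 33.5 at 60 days, and 33.4, 44.1 and 37.5 at 90 days. All 90-day libraries lay above all 30-day libraries, by a narrow margin for 90-day sample 1. The log2 fold change between those times was 0.37 ± 0.14 (edgeR adjusted p = 0.182).

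Mylk encodes myosin light chain kinase (ENSMUSG00000022836, chr16:34745210-35002420). Its CPM was 46.8, 49.0 and 60.2 at 30 days, 59.9, 64.2 and 73.2 at 60 days, and 58.0, 82.5 and 76.0 at 90 days. The highest 30-day library overlapped the lowest of each later time. The log2 fold change was 0.34 ± 0.13 at 60 against 30 days (edgeR adjusted p = 0.282) and 0.47 ± 0.13 at 90 against 30 days (edgeR adjusted p = 0.0574). The latter was 0.40 without 30-day sample 1 (edgeR adjusted p = 0.255), 0.36 without 90-day sample 2 (edgeR adjusted p = 0.299) and 0.60 without 90-day sample 1 (edgeR adjusted p = 0.0127), so a single library decided on which side of the threshold Mylk fell.

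The remaining structural genes bind or organise the filaments. Cnn1 encodes calponin, which binds actin and restrains the myosin motor (ENSMUSG00000001349, chr9:22099216-22109630). Its CPM was 31.7, 47.3 and 41.2 at 30 days, 51.6, 41.9 and 47.0 at 60 days, and 43.2, 61.6 and 50.0 at 90 days. The groups overlapped throughout, and the log2 fold change at 90 against 30 days was 0.36 ± 0.15 (edgeR adjusted p = 0.222). It was 0.22 without 30-day sample 1 (edgeR adjusted p = 0.625) and 0.21 without 90-day sample 2 (edgeR adjusted p = 0.659).

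Lmod1 encodes leiomodin, which starts new actin filaments in smooth muscle (ENSMUSG00000048096, chr1:135324807-135368065). Its CPM was 9.35, 11.0 and 12.7 at 30 days, 10.4, 9.13 and 11.1 at 60 days, and 11.0, 16.4 and 14.5 at 90 days. It was the only tested gene of the 10 whose estimate at 60 days lay under that at 30 days (-0.11 ± 0.17, edgeR adjusted p = 0.847). That sign turned to 0.00282 without 30-day sample 3. Between 60 and 90 days the log2 fold change was 0.45 ± 0.16 (edgeR adjusted p = 0.319).

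Des encodes desmin, the intermediate filament protein of muscle (ENSMUSG00000026208, chr1:75360329-75368579). It had 15, 25 and 33 counts at 30 days, 72, 35 and 23 at 60 days, and 93, 84 and 38 at 90 days. Its CPM ran from 0.959 in 60-day sample 3 to 3.13 in 90-day sample 1, and the groups overlapped at every step. The log2 fold change at 90 against 30 days was 0.81 ± 0.39 (edgeR adjusted p = 0.303), the second largest of the 9 after Actg2 and also with the second largest error.

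Tagln encodes transgelin (SM22), an actin-binding protein that is abundant in smooth muscle (ENSMUSG00000032085, chr9:45929619-45936058). It had only 7, 14 and 18 counts at 30 days, 30, 38 and 28 at 60 days, and 32, 27 and 23 at 90 days. As CPM these were 0.496, 0.831 and 1.06, then 1.29, 1.72 and 1.17, then 1.08, 0.927 and 1.15. The 60-day libraries lay above those of both other times without overlap, by a small margin over 90 days. The log2 fold change was 0.78 ± 0.42 at 60 against 30 days (edgeR adjusted p = 0.466) and -0.40 ± 0.39 at 90 against 60 days (edgeR adjusted p = 0.770).

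Annotated genes on the opposite strand cover much of Tagln. Of its 1988 exon bases, 1349 (67.9%) are also exon of another gene on the plus strand, 1241 of them of Gm48529 and 108 of Pcsk7. Among 15206 tested genes with a gene model, 211 (1.39%) had at least 50% of their exon bases covered by exons of other genes. That share counts cover on either strand. Gm48529 held 6 to 32 counts per library and Pcsk7 held 268 to 702. Whether the counting used strand, or left out reads in shared exons, is not given in the sources used here, so the level of Tagln is uncertain, and the part of this overlap in its low counts was not tested. Opposite-strand exons covered 6.85% of Mylk and 5.86% of Des, where the covering genes held at most 8 counts, and none of the other 7 genes.

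**Figure D2:**
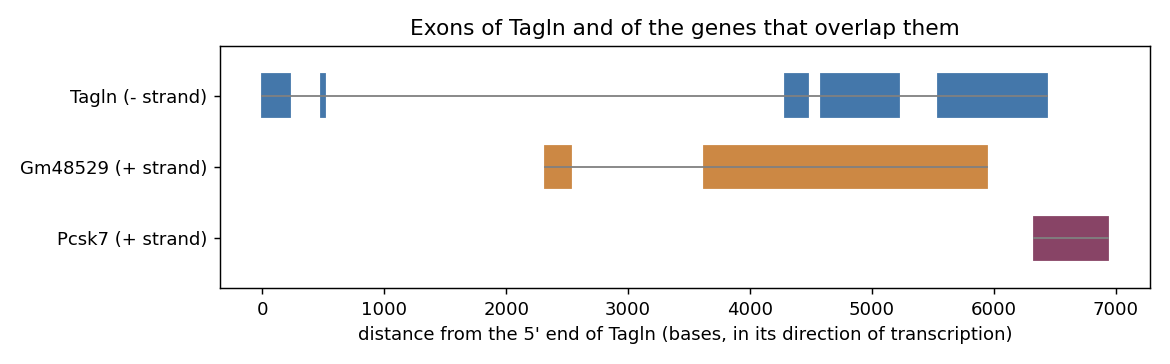
Annotated exons (boxes) of Tagln on the minus strand and of Gm48529 and Pcsk7 on the plus strand, against distance in bases from the 5′ end of Tagln along its direction of transcription. The exons of Gm48529 cover most bases of the 3 Tagln exons nearest its 3′ end, and Pcsk7 touches the last 108 bases.

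Oxtr encodes the oxytocin receptor, through which oxytocin makes mammary myoepithelial cells and uterine muscle contract (ENSMUSG00000049112, chr6:112473683-112489943). It had 0, 2 and 0 counts at 30 days, 0, 3 and 11 at 60 days, and 0, 0 and 2 at 90 days, or 18 counts in all. Only 60-day sample 3 held more than 3 counts, and 5 of the 9 libraries held none. Oxtr did not pass the filter on low counts, and when every gene was kept its edgeR adjusted p ran from 0.653 to 0.978 over the contrasts. A change in Oxtr was therefore not detectable at this depth.

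Over the list, 0 of 9 tested genes passed at 60 against 30 days, where 1.56% of all genes tested did. None passed at 90 against 60 days (0.256% of all genes) or at 60 days against the mean of the other times (0.256% of all genes), by edgeR, DESeq2 or limma. From 30 to 90 days 1 of 9 passed, where 3.57% of all genes passed and 1.81% passed upwards. In the test of any difference 1 of 9 passed, against 3.29% of all genes. All 9 tested genes held at least 7 counts in every library.

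At an unadjusted p under 0.05, 4 of 9 were higher at 60 than at 30 days (Acta2, Myh11, Mylk and Actg2), where 6.42% of all genes tested were. At 90 against 60 days 1 of 9 was (Lmod1), against 5.79% of all genes. Over 90 against 30 days 6 of 9 were (those 4 with Cnn1 and Myl9), against 8.38% of all genes. At 60 days against the mean of the other times 0 of 9 had such a p. The comparisons of 60 and of 90 with 30 days share the same 3 libraries of 30 days, so their counts are not independent of each other. Nor are the 9 genes separate observations: 7 of them were lowest in 30-day sample 1 and 7 highest in 90-day sample 2.

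By CPM, 3 of 9 genes (Acta2, Tagln and Actg2) were higher at 60 than at 30 days without overlap, where 8.65% of all genes tested were. At 90 against 60 days, Actg2 was higher and Tagln lower without overlap, 1 of 9 higher against 8.3% of all genes and 2 of 9 in either direction against 15.9%. Between 30 and 90 days, Myl9 and Actg2 were higher without overlap, 2 of 9 against 11.4% of all genes. The share at 90 against 60 days lay near that of all genes.

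**Figure D3:**
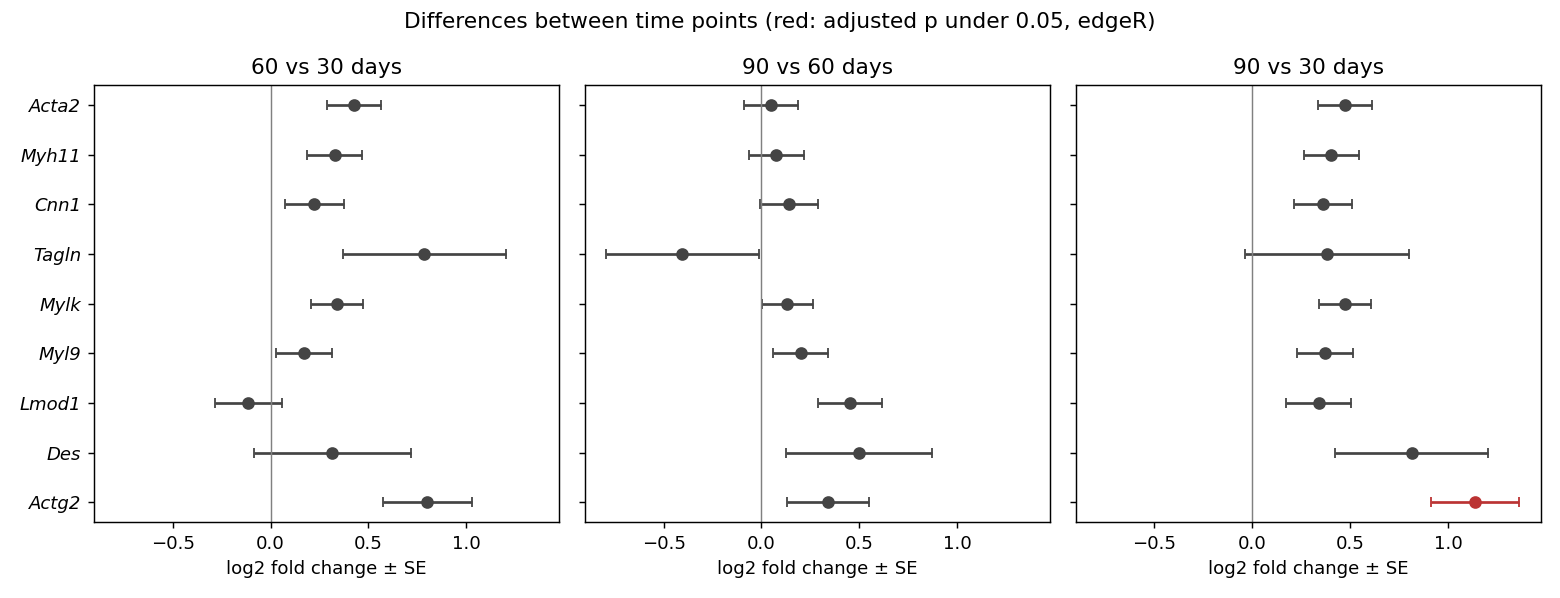
Log2 fold change (horizontal axis, bars are ± 1 SE) of the 9 tested contractile genes for each pair of times, from 1 edgeR fit over 9 libraries. At 90 against 30 days all points lie to the right of 0, and Actg2 at 1.14 is the only one past an adjusted p of 0.05 (red).

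Ratios within a library do not depend on how libraries are scaled, so each gene was also expressed as a percentage of the Acta2 counts of the same library; these ratios were computed after the levels had been seen and carry no test. Actg2 stood at 1.55%, 1.60% and 1.46% of Acta2 at 30 days, 2.09%, 1.74% and 2.16% at 60 days, and 2.84%, 2.26% and 2.36% at 90 days. The means were 1.54 ± 0.07, 2.00 ± 0.23 and 2.48 ± 0.31% (SD, n = 3 each), and each group lay above the one before it without overlap. Among all other genes tested, 1.08% had a ratio to Acta2 that was higher without overlap at 60 than at 30 days, 5.08% at 90 than at 60 days and 1.75% at 90 than at 30 days.

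Lmod1 went the other way at 60 days. It stood at 7.08%, 6.76% and 6.99% of Acta2 at 30 days, 4.97%, 4.24% and 5.14% at 60 days, and 6.33%, 6.43% and 6.21% at 90 days. The 60-day ratios lay under those of both other times, and the 90-day ratios under those at 30 days, all without overlap. In either direction, 43.6% of all other genes had ratios without overlap at 60 against 30 days, 7.59% at 90 against 60 days and 28.4% at 90 against 30 days. The ratios of Myh11, Myl9, Mylk, Cnn1, Tagln and Des overlapped between all times.

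**Figure D4:**
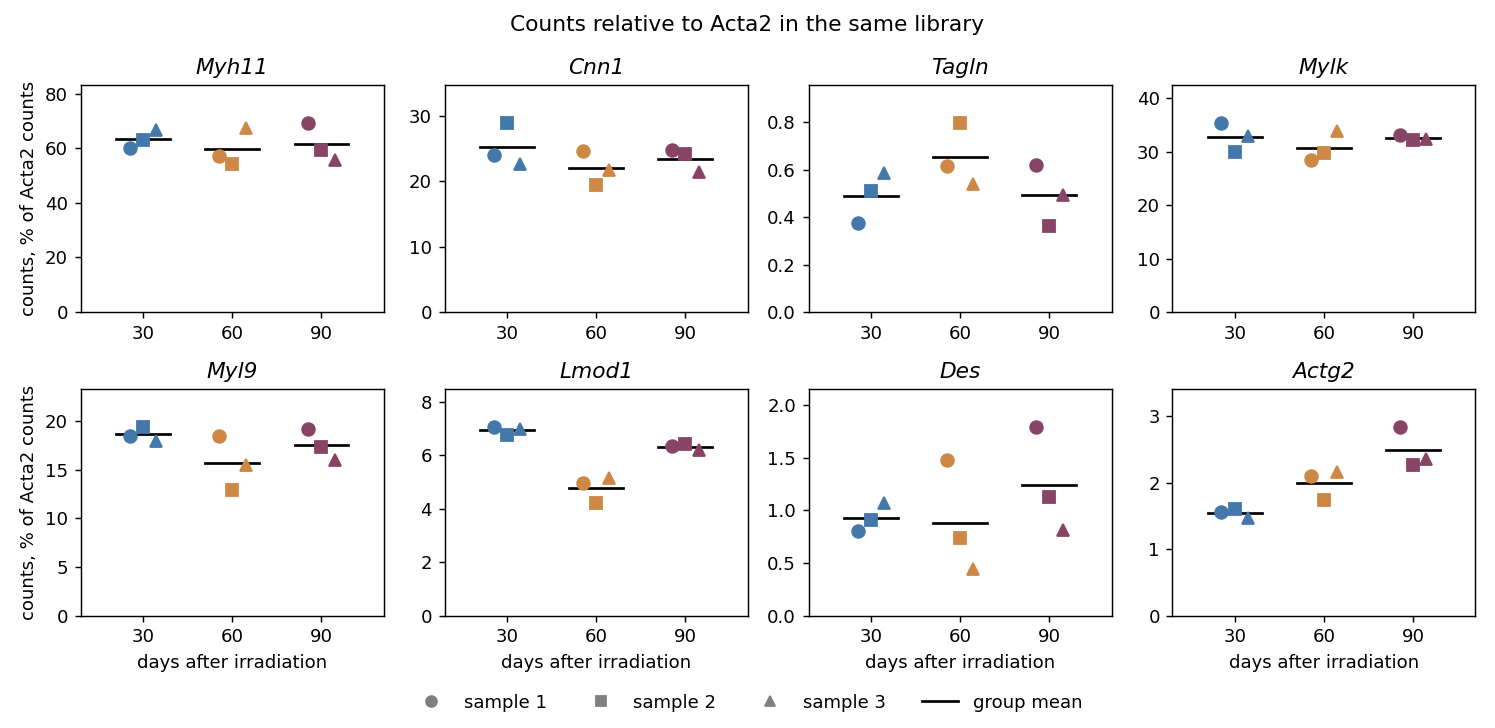
Counts of 8 contractile genes as a percentage of the Acta2 counts in the same library (vertical axes start at 0 and differ between panels) against days after irradiation, with 1 point per library and a bar at each group mean. Actg2 steps from a mean of 1.54% to 2.00% and 2.48%, Lmod1 is lowest at 60 days, and the other 6 overlap between times.

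Other proteins of the contractile apparatus were followed in a list of 24 genes, all of which were tested. At 90 against 30 days 18 of 24 had a higher estimate, with a median log2 fold change of 0.23. Of all genes 3.57% were called at these times and 1.81% were called higher, and 1 of the 24 rose. This was Smtn, which encodes smoothelin, a protein of the contractile filaments, at 25.8 ± 6.28 CPM at 30 days, 32.5 ± 5.29 at 60 days and 40.4 ± 3.12 at 90 days (SD over 3 libraries). Its log2 fold change was 0.64 ± 0.15 at 90 against 30 days (edgeR adjusted p = 0.0278), and all 90-day libraries lay above all 30-day libraries. The call was lost in 4 of 18 alternatives, those without 30-day sample 1 or 2 or without 90-day sample 2 or 3 (edgeR adjusted p = 0.109 to 0.133). At 90 against 30 days 9 of the 24 had an unadjusted p under 0.05, 7 of them higher, against 16.8% and 8.38% of all genes. At 60 against 30 days 0 of the 24 passed, and 4 had such a p, all 4 higher. Of all genes 12.4% had such a p at those times, and 6.42% had it with a higher estimate. At 90 against 60 days 0 passed, with 0 at such a p, against 10.8% of all genes.

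Of 12 transcriptional regulators around serum response factor and its coactivator myocardin, 9 were tested and 0 passed in any contrast. At 90 against 30 days 8 of the 9 had a higher estimate, and the median log2 fold change was 0.33. An unadjusted p under 0.05 was found for 2 of the 9, 2 of them higher, against 16.8% and 8.38% of all genes. Srf was at 19.0 ± 1.75, 23.7 ± 3.18 and 21.8 ± 2.67 CPM at 30, 60 and 90 days (SD, 3 libraries a time), with a log2 fold change of 0.20 ± 0.13 at 90 against 30 days (edgeR adjusted p = 0.505). Myocd, which encodes myocardin, held 0 to 5 counts per library and 20 in all, and was not tested.

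Of 20 genes that carry contraction signals (among them receptors, G proteins and calcium channels), 18 were tested. At 60 against 30 days 1 rose: Adra1a, the alpha-1A adrenergic receptor gene, which was at 25.0 ± 3.66, 39.1 ± 2.40 and 31.5 ± 0.497 CPM at 30, 60 and 90 days (SD, 3 libraries a time). Its log2 fold change at 60 against 30 days was 0.65 ± 0.12 (edgeR adjusted p = 0.00557). Of all genes 1.56% passed between those times. Adra1a was also above the mean of the other times at 60 days (edgeR adjusted p = 0.0418). The 60 against 30 day call was lost with library-size scaling (edgeR adjusted p = 0.0736) and without 60-day sample 2 (edgeR adjusted p = 0.0523). None of the 18 passed at 90 against 30 days, with 2 at an unadjusted p under 0.05, 1 of them higher, against 16.8% and 8.38% of all genes.

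The level of the contractile genes was set beside markers of the cells that could carry them. Of 14 markers of basal and myoepithelial epithelium, all tested, 12 had a higher estimate at 90 than at 30 days. The median log2 fold change of the 14 was 0.47, and 2 rose, where 1.81% of all genes were called higher. An unadjusted p under 0.05 was found for 9 of the 14, 8 of them higher, against 16.8% and 8.38% of all genes. Trp63, a transcription factor gene of basal cells, was at 11.4 ± 2.38, 12.2 ± 2.77 and 21.6 ± 5.70 CPM at 30, 60 and 90 days, with a log2 fold change of 0.92 ± 0.21 at 90 against 30 days (edgeR adjusted p = 0.0289). Igfbp2, which encodes a binding protein of insulin-like growth factors, was at 17.2 ± 5.01, 26.3 ± 1.60 and 35.2 ± 9.23 CPM, with a log2 fold change of 1.03 ± 0.22 (edgeR adjusted p = 0.0249). The call of Trp63 was lost in 5 of 18 alternatives, those without 30-day sample 1 or 2, 60-day sample 2, or 90-day sample 2 or 3 (edgeR adjusted p = 0.0530 to 0.150). That of Igfbp2 was lost in 6 of 18, those with only the libraries of the contrast or without 30-day sample 2, 60-day sample 1 or 3, or 90-day sample 2 or 3 (edgeR adjusted p = 0.0549 to 0.110). The basal keratin genes missed the threshold, with 0.51 ± 0.14 for Krt5 (edgeR adjusted p = 0.0608) and 0.34 ± 0.16 for Krt14 (edgeR adjusted p = 0.286). The summed level of the 14 ran from 274 to 360 CPM at 30 days, 314 to 342 at 60 days and 324 to 436 at 90 days.

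Of 14 markers of vascular smooth muscle and pericytes, 13 were tested and 0 passed in any contrast. Pericyte markers in this list are Rgs5, Pdgfrb, Cspg4, Notch3, Kcnj8 and Abcc9. The vascular smooth muscle markers Acta2, Myh11, Tagln, Cnn1, Lmod1 and Des are among the contractile genes and not in it. The list therefore does not follow vascular smooth muscle apart from the contractile genes. In the 90 against 30 day contrast 7 of 13 had a higher estimate, with a median log2 fold change of 0.09. An unadjusted p under 0.05 was found for 2 of the 13, 2 of them higher, against 16.8% and 8.38% of all genes. The pericyte markers Rgs5 (-0.21 ± 0.15, edgeR adjusted p = 0.548) and Pdgfrb (-0.23 ± 0.18, edgeR adjusted p = 0.579) had lower estimates. Mcam, an adhesion gene of vessel walls, had the smallest adjusted p of the list with a higher estimate (0.67 ± 0.19, edgeR adjusted p = 0.0575), and it is named here after its value was seen. The summed level of this list was 79.3 to 107 CPM at 30 days, 82.3 to 97.8 at 60 days and 80.3 to 107 at 90 days. The difference between the basal and the vascular list was not tested, and Acta2, Myh11 and Cnn1 are made by both kinds of cell.

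Skeletal muscle, which borders the gland, was nearly absent from the reads. Only 2 of its 15 markers could be tested, Ckm at 18 to 54 counts and Acta1 at 1 to 14 counts per library, and Myh4, Tnnc2 and Pvalb held none. The sum of the 15 was 2.56 to 4.50 CPM over all libraries, against 327 to 621 CPM for the 10 contractile genes. None of 10 fibroblast markers and none of the 3 adipocyte markers that could be tested (of 8) passed in any contrast. Among 10 endothelial markers, Egfl7 rose at 90 against 60 days (0.94 ± 0.18, edgeR adjusted p = 0.0261), where 0.256% of all genes passed. The estimate of Egfl7 was lower at 60 than at 30 days (-0.53 ± 0.18, edgeR adjusted p = 0.203). It did not pass at 90 against 30 days (0.40 ± 0.18, edgeR adjusted p = 0.252).

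The secretory epithelium, which supplies most of the RNA, changed over the same times. The summed level of 10 acinar markers was 72068 to 127854 CPM at 30 days, 68636 to 89117 at 60 days and 45967 to 63110 at 90 days, and 2 of its 9 tested markers were called lower at 90 than at 30 days while 4 of the 9 had higher estimates. Most of that sum was Prol1, singled out after its values were seen, at 84762, 61970 and 47725 CPM on average at 30, 60 and 90 days, with an edgeR adjusted p of 0.0621 at 90 against 30 days. The sum of 10 granular duct markers was 21376 to 29907 CPM at 30 days, 43812 to 53538 at 60 days and 38897 to 53254 at 90 days, with 9 of the 10 called higher at both later times than at 30 days. Of all 15224 genes tested, 173 were called higher at 60 against 30 days. Between 30 and 90 days 275 were called higher and 269 lower. The sum of the contractile genes was 327 to 456 CPM at 30 days, 482 to 534 at 60 days and 450 to 621 at 90 days. The part of these shifts in the contractile gene levels was not tested.

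**Figure D5:**
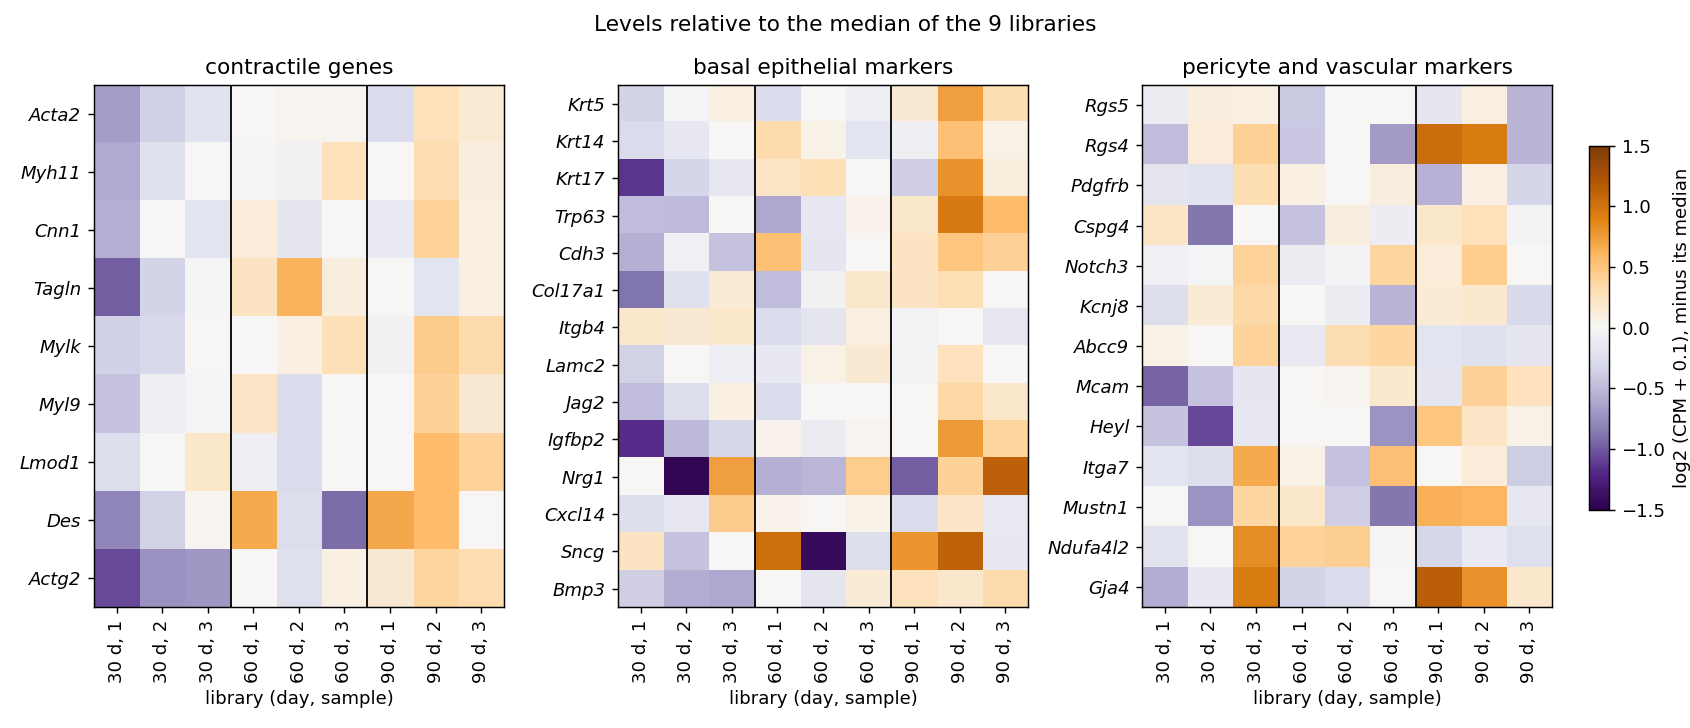
Levels of the 9 tested contractile genes, 14 basal epithelial markers and 13 pericyte and vascular markers in each of 9 libraries, as log2 (CPM + 0.1) minus the gene's median over the libraries (colour, ending at 1.5 in either direction), ordered by day and sample. Most contractile genes are low in 30-day sample 1 and high in 90-day sample 2, and so are several basal markers and, in the third panel, Mcam and Gja4.

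The genes whose profile over the 9 libraries was most like that of Acta2 were found by the root mean square difference between standardised log2 CPM, among 13009 genes at 1 CPM or more on average. The 4 nearest outside the list were Mcam (0.172), which is also in the vascular list, Slco3a1 (0.258), an organic anion transporter gene, Lcn2 (0.263), which encodes a secreted iron-sequestering protein, and Hunk (0.264), a protein kinase gene. Within the list Mylk (0.329) and Myh11 (0.425) were nearest to Acta2, followed by Actg2 (0.517), Cnn1 (0.540) and Myl9 (0.636), while Tagln (0.742), Lmod1 (0.841) and Des (1.05) were farthest. Mcam was at 8.43 ± 2.23, 12.5 ± 0.897 and 13.5 ± 2.75 CPM at 30, 60 and 90 days (SD, 3 libraries a time). For Myh11 the nearest were Plat (0.172), the tissue plasminogen activator gene, Lamb3 (0.229), which encodes a laminin chain of basement membranes, Ptpn13 (0.238), a tyrosine phosphatase gene, and 1700028J19Rik (0.246). These are distances over libraries that share depth and scaling, given as a description. Oxtr had too few reads for such a comparison.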

How the data were processed

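Bulk RNA sequencing of mouse submandibular glands gave 9 libraries in 3 groups. The authors deposited whole-number read counts for 54532 genes. Per the submitters' processing notes, fastp, STAR, featureCounts and the mm10 build were used; versions, annotation and use of strand are not given in the sources used here. Another 3 value columns carry names that fit none of the samples and stayed out of every step. Columns were assigned by the day and sample number in their names, and 54409 identifiers had a symbol.

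Counts were tested with edgeR 4.0.16 (R 4.3.3): TMM scaling, filterByExpr at a minimum count of 10 (15224 genes), and a robust quasi-likelihood fit of time point over all 9 libraries, with Benjamini-Hochberg adjustment over all genes tested and a threshold of 0.05. The procedure was tested on simulated data. CPM used TMM-scaled library sizes. Positions and exons came from GENCODE M21 (GRCm38), promoters from RefSeq.

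The members and gene lists were chosen with earlier results of these data known. All 10 contractile genes are named; of each other list, the rule allowed up to 4 called genes by smallest p of any difference, plus Srf, Myocd, Krt5, Krt14, Trp63, Rgs5, Pdgfrb, Ckm and Acta1; and the 4 genes most alike in profile to Acta2 and Myh11. Acinar and granular duct markers are given as sums and counts of genes, and Prol1 was named after its values were seen. Alternatives were RLE or library-size scaling, DESeq2 1.42.0, limma-voom 3.58.1, other low-count filters, only the libraries of a contrast, thinned counts, a replicate block and leaving out each library. Libraries of a group differed beyond sampling noise (chi-square per degree of freedom 7.23 to 23.7).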

Additional observations from a re-analysis of the deposited data

How the results depend on the processing

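Contractile genes called at 90 against 30 days numbered 1, and 3 with library-size scaling, 3 with DESeq2, 6 with no low-count filter and 1 to 4 when each library was left out (4 without 30-day sample 3, 3 without 90-day sample 1, 2 without 60-day sample 3); Actg2 was called each time. In the test of any difference 1 was called, and 2 with DESeq2, 4 with no low-count filter and 0 to 3 when each library was left out, with none without 30-day sample 1, 30-day sample 2, 90-day sample 2 or 90-day sample 3, and 3 without 90-day sample 1. At 60 against 30 days 0 became 1 with no low-count filter, where 459 of 27001 genes were called. Over all genes, 544 of 15224 were called at 90 against 30 days in the main fit. There were 440 of 15224 with library-size scaling, 860 of 14632 with DESeq2 and 1045 of 27001 with no low-count filter. Calls numbered 565 of 15744 without 30-day sample 3, 595 of 15433 without 90-day sample 1 and 703 of 15656 without 60-day sample 3. Between libraries of different times, correlations of deviations ran from -0.06 to 0.191 for equal sample numbers and from -0.21 to 0.189 for unlike numbers. Of the 9 libraries, 4 matched their own number best. These values do not decide whether equal sample numbers pair the libraries. With the sample number as a replicate block, 4 contractile genes were called at 90 against 30 days and 3 in the test of any difference, and the list of other contractile genes had 2 calls and the vascular list 1. With that block 717 of all 15224 genes tested were called at 90 against 30 days.

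The other contractile list (1 call at 90 against 30 days) had 2 with DESeq2, 5 with no low-count filter and 0 to 2 leaving out each library. The basal list (2 calls) had 4 with library-size scaling, 5 with DESeq2, 6 with no low-count filter, 1 with only the libraries of the contrast and 0 to 4 leaving out each library. The vascular list (0 calls) had 1 with library-size scaling, DESeq2 or no low-count filter and 0 to 1 leaving out each library. The signalling list at 60 against 30 days (1 call) had 0 with library-size scaling and 0 to 1 leaving out each library. Of all 15224 genes tested, 238 were called between those times in the main fit and 90 with library-size scaling. With only the libraries of the contrast, 595 of 14453 genes were called at 90 against 30 days.

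Signs turned for Lmod1 at 60 against 30 days (0.00282 without 30-day sample 3; -0.22 at the other end), for Des there (-0.25 without 60-day sample 1; 0.64 at the other end), and at 90 against 60 days without 90-day sample 2 for Acta2 (-0.074 to 0.19 over the libraries left out), Myh11 (-0.028 to 0.18) and Cnn1 (-0.018 to 0.24); the cause was not tested. That library's removal left 5 of 9 contractile genes higher at 90 than at 60 days, against 8 of 9. Acta2 was called at 90 against 30 days in 6 of 18 alternatives, Mylk in 7, Myh11 in 3, and Cnn1 and Myl9 in 1 each. Library-size scaling moved the median log2 fold change at 90 against 30 days to 0.237 over all genes and to 0.612 over the contractile genes. A filter of 10 counts in every library dropped Tagln, and fits of only the libraries of a contrast do not exist for the contrasts over 3 times. Oxtr, with 18 counts in all, was the only one of the 10 with too few counts to test.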
